A study of Homo sapiens with 10 samples.

Results

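Genes of extracellular proteolysis were followed across prostate epithelial cells labelled as control or as carrying 1 of 2 ETS transcription factors. The genes were the matrix metalloproteases MMP1, MMP9, MMP10 and MMP14, the sheddases ADAM10, ADAM17 and ADAM19, and the tissue inhibitors TIMP1, TIMP2 and TIMP3. Every probe set annotated to exactly 1 gene was taken where that gene was among these, which gave 23 of the 54613 probe sets that are not array controls and reached all 10 genes. A probe set is a group of short probes read together as a single value. Of the 23, 21 lay above their array's median on at least 3 arrays and were tested, among 31839 tested probe sets in all. MMP14 202828_s_at and ADAM19 209765_at did not reach that level, but both genes had other probe sets that did.

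Matrix metalloproteases are zinc enzymes, made as inactive proenzymes, that cut collagens and other matrix proteins. MMP1 cuts fibrillar collagen, MMP9 is a gelatinase, MMP10 is a stromelysin, and MMP14 sits in the plasma membrane, where it cuts collagen and activates pro-MMP2 together with TIMP2. ADAM10 and ADAM17 are membrane proteases that release growth factors, cytokines and receptors from the cell surface, and ADAM19 is a related membrane protease. The TIMPs are secreted proteins that block the active sites of metalloproteases. TIMP3 stays bound to the matrix and inhibits ADAM17 and ADAM10 as well as MMPs. ETV1 and ERG are ETS factors that gene fusions activate in prostate cancer, and factors of the ETS family bind DNA at a GGAA core.

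The RNA came from RWPE-1, an immortalised and non-tumorigenic line of human prostate epithelium, and was read on 10 HG-U133 Plus 2.0 arrays from Affymetrix. All cells had been infected with MSCV retroviruses, selected as stable clones and kept in normal growth conditions, and all of them carried the biotin ligase BirA. Control cells carried BirA alone (3 arrays, A to C), and ETV1 cells carried BirA and ETV1 (4 arrays, A to D). The cells labelled ERG carried BirA and ERG by their label (3 arrays, A to C). The series design speaks of 3 biological replicates where the labels give 4 ETV1 arrays, and nothing says that the arrays of a group came from separately derived clones, so each p-value reflects only how far the arrays of a group scatter, which may be partly technical. The question is how the cells' expression differs once either factor is overexpressed; the silencing experiments named in the series title were not analysed here.

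The stretches upstream of TIMP3, MMP14 and MMP10 are shown because TIMP3 had the largest rises of the 10 genes on ETV1 arrays, and MMP14 and MMP10 are metalloproteases with probe sets that read higher and lower on ERG-labelled arrays. They come from RefSeq on GRCh38.p14, hold the 250 bases before the annotated start of each gene, and run 5′ to 3′ along the strand of the gene. Capitals mark GGAA or its reverse complement TTCC.
TIMP3, chr22:32801455-32801704, plus strand: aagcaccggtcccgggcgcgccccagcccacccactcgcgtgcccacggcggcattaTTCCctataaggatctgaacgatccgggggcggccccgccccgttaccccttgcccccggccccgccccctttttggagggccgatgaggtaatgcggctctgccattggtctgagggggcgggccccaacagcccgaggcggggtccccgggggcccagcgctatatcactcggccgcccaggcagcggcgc
MMP14, chr14:22836335-22836584, plus strand: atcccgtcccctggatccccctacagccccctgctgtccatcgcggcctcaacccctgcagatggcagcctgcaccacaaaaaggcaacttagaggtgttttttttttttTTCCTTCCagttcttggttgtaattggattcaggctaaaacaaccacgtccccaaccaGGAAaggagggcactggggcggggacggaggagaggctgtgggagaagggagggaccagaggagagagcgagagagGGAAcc
MMP10, chr11:102780629-102780878, minus strand: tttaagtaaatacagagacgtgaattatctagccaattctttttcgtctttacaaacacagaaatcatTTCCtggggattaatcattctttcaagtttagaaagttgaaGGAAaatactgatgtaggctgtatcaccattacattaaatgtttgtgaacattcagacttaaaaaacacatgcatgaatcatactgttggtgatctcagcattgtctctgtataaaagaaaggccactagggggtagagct
GGAA was searched on both strands, and adjoining matches are counted separately. The TIMP3 stretch held 1 match, 193 bases upstream of the start, in sequence of 72.4% G and C. The MMP14 stretch (56.8% G and C) held 4, at 140, 136, 82 and 6 bases upstream, the first pair of them side by side. The MMP10 stretch (34.4% G and C) held 2, at 182 and 141 bases upstream. Such matches are common: 92.7% of 35116 RefSeq upstream stretches of the same length held at least 1, with a median of 3. Of the 10 genes, 7 had an entry. Among the other entries, ADAM10 had 8 matches, TIMP1 had 4, ADAM17 had 3 and ADAM19 had 2. The longer form CCGGAA, which overlaps GGAA and was also searched on both strands, occurred in 14.5% of all stretches and, among the 7, in that of ADAM17. TGAGTCA, the usual site of AP-1, occurred in 4.2% of all stretches and in 0 of the 7. MMP1, MMP9 and TIMP2 are named only.

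The arrays differed in ways that touch the results. Median intensity was 72.5 ± 1.05 (SD, n = 3) on control, 73.8 ± 2.01 (n = 4) on ETV1 and 50.7 ± 2.09 (n = 3) on ERG-labelled arrays, and the number of arrays limits the precision. ETV1 arrays carried their factor: ETV1 217053_x_at read 88.1 ± 29.0 on control and 1320 ± 355 on ETV1 arrays, and 206501_x_at and 217061_s_at rose too. ETV1 221910_at (80.3 ± 3.03 and 90.5 ± 13.9) and 221911_at (39.0 ± 10.7 and 46.7 ± 10.8) overlapped between these groups. Each ETV1 probe set read lower on ERG-labelled than on control arrays in the mean, 217053_x_at at 14.9 ± 5.59. The probe sets of ERG itself did not move together on the ERG-labelled arrays. ERG 211626_x_at read 9.04 ± 3.23 on control and 36.5 ± 12.3 on ERG-labelled arrays, but 222079_at read 186 ± 4.61 and 9.43 ± 1.57. ERG 213541_s_at (25.5 ± 12.5 and 33.5 ± 7.35) and 241926_s_at (17.2 ± 3.52 and 26.4 ± 7.76) overlapped between these groups. In the mean, each ERG probe set lay under the median intensity of the ERG-labelled arrays. These probe sets do not settle the label, and every direction drawn from these arrays carries that limit. The ratio of 3 prime to 5 prime signal of ACTB, a sign of RNA quality, was 1.38 ± 0.0243, 1.26 ± 0.0288 and 2.94 ± 0.171 in the same order of groups. The same ratio of GAPDH was 0.916 ± 0.0202, 1.02 ± 0.0253 and 1.0 ± 0.0516, and did not set the ERG-labelled arrays apart from ETV1 arrays. The 5 prime 18S signal was 121 ± 39.7, 633 ± 253 and 961 ± 135, with overlap of ETV1 and ERG-labelled arrays. Spearman correlations between ETV1 and control arrays were 0.956 to 0.969. Those of ERG-labelled arrays were 0.766 to 0.811 with control and 0.768 to 0.795 with ETV1 arrays. The part of these differences in the results was not tested. All 10 epithelial markers read, among them KRT5, KRT14, KRT8 and CDH1, lay above the array median on every array. Of markers of other cells, 6 of 10 fibroblast markers (PDGFRA, LUM, COL3A1, FAP, POSTN and DPT), 4 of 8 leukocyte markers (PTPRC, CD14, LYZ and ELANE) and 3 of 8 endothelial markers (CDH5, TEK and TIE1) lay above it on no array. Others lay above it on every array: DCN and COL1A1 of the fibroblast list, CSF1R of the leukocyte list, and PECAM1 (1393 on control and 163 on ERG-labelled arrays in the mean) and ENG of the endothelial list. THY1 and CD3E lay above it on 7 arrays. In bulk RNA, fewer cells with a transcript and less of it per cell cannot be told apart.

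TIMP3, the matrix-bound inhibitor, was higher in ETV1 cells than in control cells, by 1.86-fold to 2.15-fold over its 4 probe sets. Single probe sets of MMP14, ADAM17, ADAM19 and ADAM10 also rose, by 1.34-fold to 1.55-fold, while MMP1 fell from a level that was already dim. TIMP1, TIMP2, MMP9 and MMP10 had no probe set that passed the test. At a limma p of 0.05, adjusted by Benjamini-Hochberg over all tested probe sets, 9 of the 21 tested probe sets (42.9%) were called, 8 higher and 1 lower, against 20.5% called among all tested probe sets, of which 9.2% were higher and 11.3% lower. The median log2 difference was 0.14 over the 21 probe sets and -0.03 over all tested probe sets. Of the 8 higher calls 4 were those of TIMP3, which read the same gene, so the 9 calls stand for 6 of the 10 genes. With 1 probe set per gene, the one with the highest mean over all arrays, 3 of the 10 genes (30.0%) were called, TIMP3 and ADAM19 higher and MMP1 lower, against 22.5% of all genes tested that way. The arrays of the groups did not overlap in 10 of the 21 (47.6%), against 32.8% of all tested probe sets.

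TIMP3 201148_s_at read 412, 359 and 284 on control arrays A to C and 721, 714, 720 and 928 on ETV1 arrays A to D. Every ETV1 array lay above every control array, and array D was the highest. The log2 fold change was 1.11 (SE 0.15, 95% confidence interval 0.78 to 1.43), or 2.15-fold, with a limma adjusted p of 1.6e-04. An exact two-sided permutation test gave p = 0.029, the least possible with 4 and 3 arrays.

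The remaining TIMP3 probe sets showed the same picture. TIMP3 201147_s_at read 227, 229 and 193 on control arrays and 388, 419, 420 and 626 on ETV1 arrays (log2 fold change 1.02, SE 0.16, limma adjusted p = 5.1e-04). TIMP3 201149_s_at read 195, 229 and 195 against 328, 379, 375 and 528 (0.89, SE 0.17, limma adjusted p = 0.00156). TIMP3 201150_s_at read 222, 195 and 211 against 401, 375, 430 and 662 (1.06, SE 0.20, limma adjusted p = 0.00162). In none of these did the groups overlap, and ETV1 array D was the highest each time. That array also had the lowest 5 prime 18S ribosomal RNA signal of the ETV1 arrays, 276 against a group mean of 633 ± 253 (n = 4). Control arrays had 121 ± 39.7 (n = 3). ETV1 array D was also the lowest of its group in ETV1 206501_x_at (685), 217053_x_at (844) and 217061_s_at (547). It was not the lowest in ETV1 221910_at (108) or 221911_at (52.3). How TIMP3 moves with the level of ETV1 was not tested. Without ETV1 array D the 4 TIMP3 probe sets still rose, by 0.76 to 1.01 on the log2 scale. Summed fibroblast marker intensity overlapped between the groups, at 1204 to 1435 on control and 1304 to 1361 on ETV1 arrays.

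**Figure D1:**
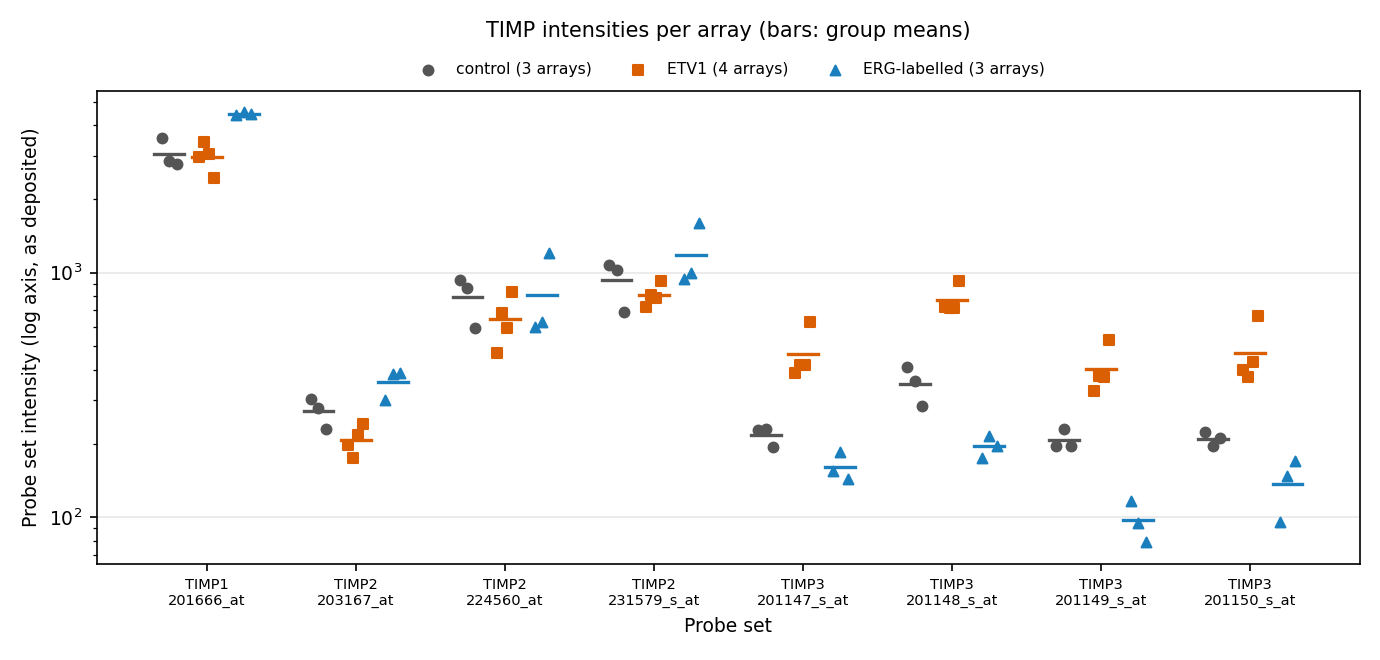
Intensity of each tested TIMP1, TIMP2 and TIMP3 probe set on every array; each point is 1 array, placed by group, with intensity on a log axis and bars at the group means. In all 4 TIMP3 columns the ETV1 arrays lie above the control arrays and the ERG-labelled arrays below them, while the TIMP1 and TIMP2 columns show overlap of ETV1 and control arrays.

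TIMP1, the secreted inhibitor with a broad reach over MMPs, read 3559, 2852 and 2786 on control arrays and 2961, 3415, 3063 and 2442 on ETV1 arrays. These ranges overlapped, and the log2 difference was -0.05 (SE 0.14, 95% confidence interval -0.35 to 0.26). TIMP2, the inhibitor that also helps MMP14 activate pro-MMP2, had log2 differences of -0.36, -0.30 and -0.17 in its 3 probe sets, none of which passed (limma adjusted p 0.107 to 0.592). TIMP2 203167_at, with 304, 279 and 230 on control and 198, 174, 217 and 240 on ETV1 arrays, overlapped by ETV1 array D alone. It passed after quantile normalization (-0.40, limma adjusted p = 0.0354) and without control array C (-0.47, limma adjusted p = 0.0489).

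Among the metalloproteases, MMP14 gave different answers by probe set. MMP14 202827_s_at read 85.2, 78.5 and 76.1 on control arrays and 125, 147, 137 and 120 on ETV1 arrays. All ETV1 arrays were above all control arrays, a log2 fold change of 0.62 (SE 0.14, limma adjusted p = 0.00523). MMP14 160020_at did not pass (246, 322 and 333 against 312, 339, 297 and 381; 0.14, 95% confidence interval -0.18 to 0.46), nor did 217279_x_at (651, 541 and 601 against 606, 482, 425 and 569; -0.20, -0.55 to 0.15). The interval of 202827_s_at, 0.33 to 0.92, lay partly within that of 160020_at and above that of 217279_x_at. The untested 202828_s_at read 3.88 to 9.03 on control and 2.98 to 16.3 on ETV1 arrays.

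MMP1, interstitial collagenase, read 24.9, 16.1 and 32.1 on control arrays and 1.98, 7.08, 11.4 and 18 on ETV1 arrays. All of these values lay under the array median, and the probe set was tested only because the 3 ERG-labelled arrays lay above it. ETV1 array D overlapped the control range. The log2 difference on intensity plus 16 was -0.68 (SE 0.21, limma adjusted p = 0.0304), and this scale understates the change of so dim a gene. The call ended in 8 of 18 alternatives: at an adjusted p of 0.01, with no filter (adjusted p = 0.0739), with a pseudocount of 1 (-1.50, 0.059) or 64 (-0.26, 0.113), and without control array A (0.0957) or C (0.123) or ETV1 array A (0.0932) or B (0.0721).

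MMP9, the gelatinase, read 252, 238 and 304 on control arrays and 226, 236, 224 and 210 on ETV1 arrays. The groups did not overlap, yet the difference of -0.22 (SE 0.13) did not pass in limma (adjusted p = 0.264). MMP10 read 150, 112 and 125 against 145, 134, 154 and 166, with overlap and a log2 difference of 0.20 (SE 0.15, limma adjusted p = 0.382).

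**Figure D2:**
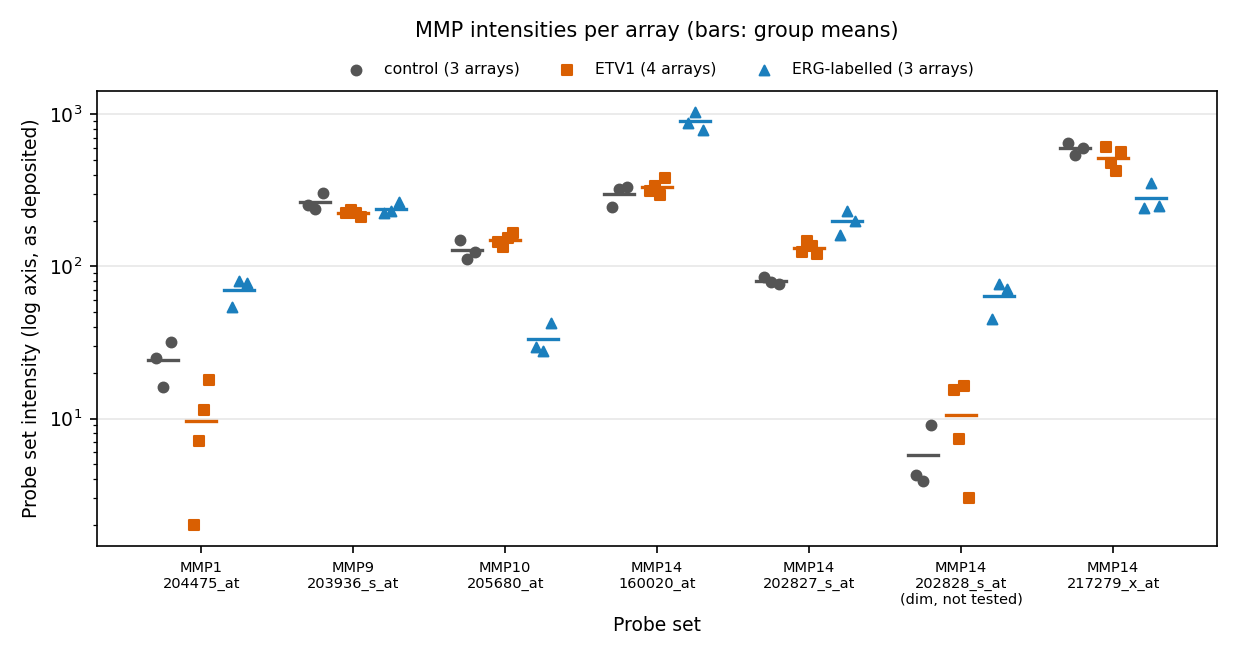
Intensity of each MMP1, MMP9, MMP10 and MMP14 probe set on every array; each point is 1 array, intensity is on a log axis and bars mark group means. MMP10 is low and MMP1 high on the ERG-labelled arrays, and the MMP14 probe sets separate the groups in different orders.

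The sheddases changed in 1 probe set each. ADAM17 205746_s_at read 77.9, 68.8 and 59.4 on control arrays and 100, 127, 121 and 96.7 on ETV1 arrays. No control array reached an ETV1 array, and the log2 fold change was 0.58 (SE 0.14, limma adjusted p = 0.00783). The other ADAM17 probe sets did not pass: 205745_x_at differed by -0.17 (95% confidence interval -0.48 to 0.15) and 213532_at by 0.05 (-0.25 to 0.35), with overlapping arrays in both. ADAM10 202604_x_at read 286, 286 and 265 on control arrays and 360, 372, 415 and 376 on ETV1 arrays (log2 fold change 0.43, SE 0.13, limma adjusted p = 0.0301). The groups were apart there, as they were in ADAM10 214895_s_at, which read 341, 308 and 278 against 359, 430, 384 and 396 and did not pass (0.33, limma adjusted p = 0.181). ADAM10 202603_at overlapped, at 1889, 1595 and 1232 against 1675, 1696, 1580 and 1818, with a log2 difference of 0.13 (SE 0.16, limma adjusted p = 0.636). The call of 202604_x_at ended when any single control array or ETV1 array A, B or C was left out (limma adjusted p 0.0529 to 0.101), with no filter (0.062) and with a replicate block (0.0774).

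ADAM19 221128_at read 63.2, 47.0 and 57.5 on control arrays and 86.4, 107, 100 and 87.4 on ETV1 arrays, which were all higher. The log2 fold change was 0.63 (SE 0.16, limma adjusted p = 0.0121). The ETV1 arrays were the only ones above their array's median, so this probe set entered the test through the group where it was high. Without control array B the difference was 0.54 and did not pass (limma adjusted p = 0.073). The untested ADAM19 209765_at read 20.2 to 47.0 on control and 22.9 to 44.3 on ETV1 arrays.

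**Figure D3:**
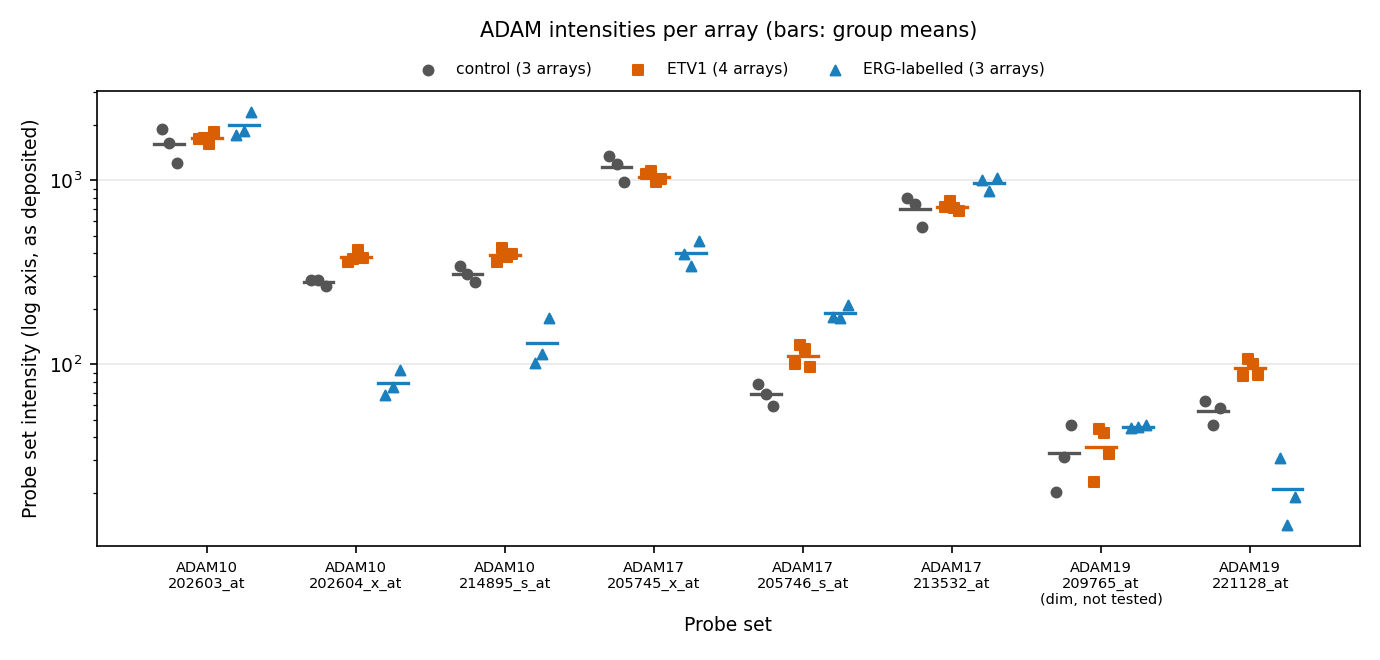
Intensity of each ADAM10, ADAM17 and ADAM19 probe set on every array; each point is 1 array, intensity is on a log axis and bars mark group means. Probe sets of the same gene differ: on the ERG-labelled arrays ADAM10 202604_x_at lies between 67.7 and 93.4, below every other array, while ADAM10 202603_at overlaps the control arrays.

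**Figure D4:**
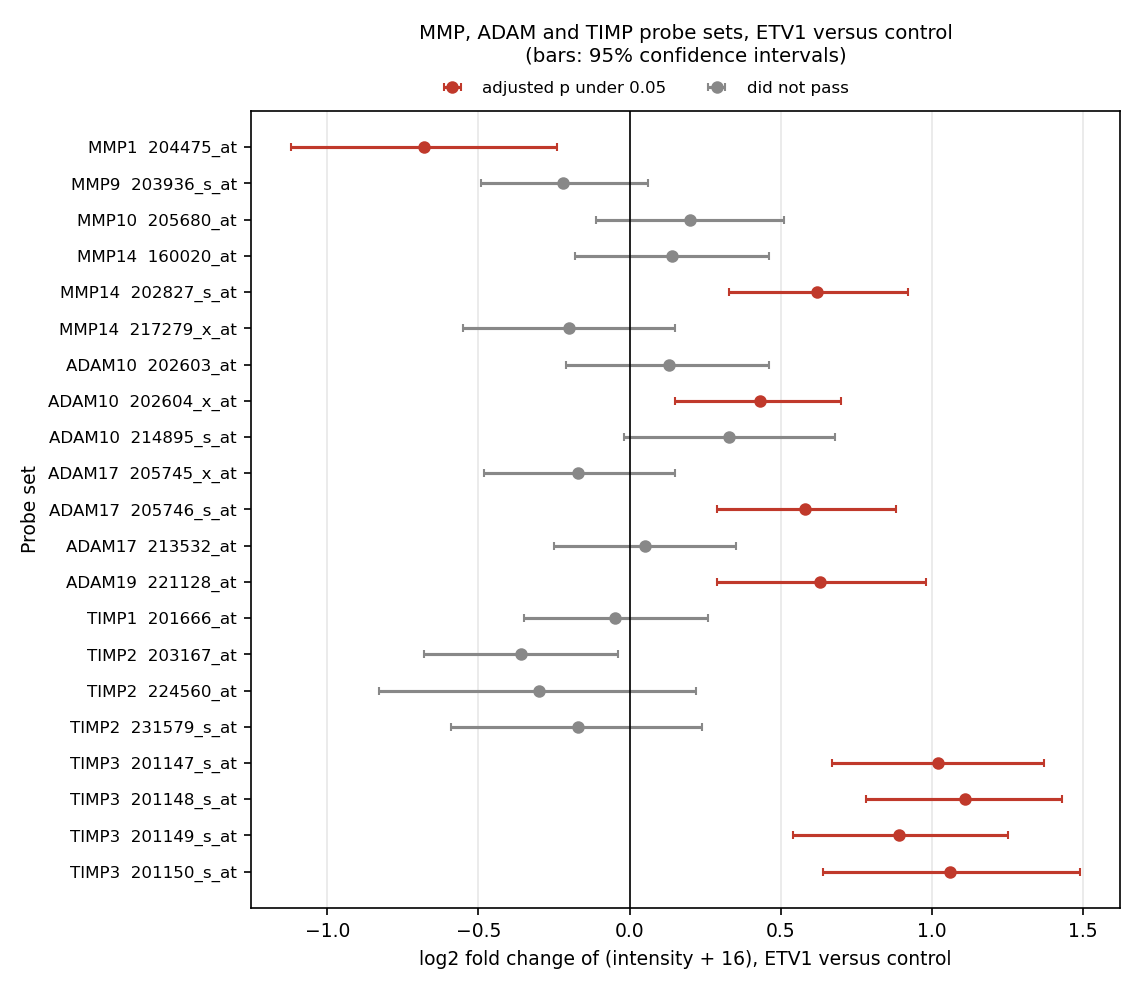
Log2 fold change between ETV1 and control arrays for each of the 21 tested probe sets, with 95% confidence intervals from limma; the vertical line marks no difference. The 4 TIMP3 probe sets have the largest rises, from 0.89 to 1.11, and MMP1 is the called fall, at -0.68.

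With the values as deposited, the ERG-labelled arrays had lower TIMP3 and MMP10 and higher MMP1 than control arrays, and the probe sets of MMP14, ADAM17 and ADAM10 disagreed among themselves. MMP14 160020_at rose 2.91-fold while MMP14 217279_x_at fell 2.08-fold, and ADAM17 205746_s_at rose 2.43-fold while ADAM17 205745_x_at fell 2.87-fold. In limma 17 of the 21 tested probe sets (81.0%) were called, 7 higher and 10 lower, against 78.2% of all tested probe sets, 40.6% higher and 37.6% lower. The share is near that background, so the count itself sets these genes apart from no others. The groups did not overlap in 16 of the 21 (76.2%), against 76.7% of all tested probe sets. The median log2 difference was -0.13 over the 21 and 0.08 over all tested probe sets.

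Scaling mattered in this comparison. Centring every array on its median moved the median of all tested probe sets from 0.08 to 0.56 and the share of higher calls from 51.9% to 66.4%, and quantile normalization left that share at 50%. Of the 17 calls, 12 kept their direction and their call under both scalings. Those that did not were ADAM17 213532_at, TIMP1, and TIMP3 201147_s_at, 201148_s_at and 201150_s_at. Opposite calls within a gene were common on these arrays: of 4958 genes with at least 2 called probe sets, 2494 (50.3%) had calls both ways, and so did MMP14 and ADAM17, 2 of the 4 genes here with several calls. In the comparison of ETV1 with control the share was 3.7% (39 of 1053 genes). Summed marker intensities also differed between control and ERG-labelled arrays. Fibroblast markers lay at 1204 to 1435 and 351 to 438, and leukocyte markers at 561 to 617 and 243 to 303. Endothelial markers lay at 1711 to 1913 and 347 to 385, and epithelial markers at 33840 to 39476 and 49336 to 51055. PECAM1 made up most of the endothelial fall, and COL1A1 with DCN most of the fibroblast fall. The markers did not all move with their sums. FAP, POSTN, DPT, CD14, LYZ and CLDN5, all dim, read higher on ERG-labelled than on control arrays in the mean. Of the epithelial markers, ITGB4 and CDH1 read lower. The part of these differences, of the ACTB ratio and of the lower median intensity in the results that follow was not tested.

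TIMP3 201149_s_at read 195, 229 and 195 on control and 117, 94.9 and 79.1 on ERG-labelled arrays. The groups were well apart, with a log2 fold change of -0.99 (SE 0.18, limma adjusted p = 1.3e-04). It passed under each of 20 alternatives, with values from -1.11 to -0.53, which none of the other TIMP3 probe sets did in this comparison. An exact two-sided permutation test gave p = 0.1, the least possible with 3 and 3 arrays.

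TIMP3 201148_s_at read 175, 214 and 195 on ERG-labelled arrays, below all control arrays (-0.79, SE 0.16, limma adjusted p = 4.1e-04), and did not pass after median centring (-0.31, 0.0881). TIMP3 201150_s_at read 95.8, 147 and 169, again below all control arrays (-0.59, SE 0.21, limma adjusted p = 0.0205). It did not pass after median centring (-0.12) or quantile normalization (-0.36), nor without control array A (-0.55) or C (-0.58) or ERG-labelled array A (-0.37). TIMP3 201147_s_at read 155, 184 and 143, below the lowest control array at 193, and lay at the edge of the threshold (-0.40, limma adjusted p = 0.0495). It kept its call in 6 of 20 alternatives, turned to 0.08 after median centring, and did not pass without control array A or B, ETV1 array A, B or C, or ERG-labelled array A or C.

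TIMP1 read 4429, 4519 and 4453 on ERG-labelled arrays, above the control arrays, with a log2 fold change of 0.55 (SE 0.15, limma adjusted p = 0.00412). After quantile normalization the difference was -0.08 and did not pass (adjusted p = 0.565). TIMP2 203167_at read 302, 385 and 389, overlapping control arrays, with 0.39 (limma adjusted p = 0.0391). That call held in 10 of 20 alternatives, and ended without control array B (0.41, limma adjusted p = 0.0641) or C (0.28, 0.14), ETV1 array A (0.39, 0.0505) or C (0.39, 0.0525), or ERG-labelled array B (0.33, 0.0972) or C (0.33, 0.0969). The other TIMP2 probe sets did not pass: 224560_at read 599, 630 and 1199 (-0.03) and 231579_s_at read 945, 999 and 1590 (0.32), with ERG-labelled array C the highest in both.

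MMP10, the stromelysin, read 150, 112 and 125 on control arrays and 29.6, 27.9 and 42.4 on ERG-labelled arrays, which were far lower. The log2 fold change was -1.56 (SE 0.16, limma adjusted p = 3.5e-07), or 2.95-fold lower. MMP10 entered the test through the 7 control and ETV1 arrays, the only ones above their array's median, so the filter partly chose it by direction. With no filter its limma adjusted p was 3.2e-06. MMP1 went the other way, reading 53.8, 80.0 and 77.7 on ERG-labelled arrays against at most 32.1 on a control array. Its log2 fold change was 1.10 (SE 0.22, limma adjusted p = 3.1e-04). It entered the test through the ERG-labelled arrays alone, and with no filter its limma adjusted p was 0.00108. MMP9 read 225, 231 and 265, overlapping control arrays, with -0.13 (SE 0.14, limma adjusted p = 0.41). After median centring the difference was 0.36 and passed (adjusted p = 0.0248).

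MMP14 160020_at read 246, 322 and 333 on control and 880, 1043 and 790 on ERG-labelled arrays, with no overlap (log2 fold change 1.54, SE 0.16, limma adjusted p = 5.2e-07). MMP14 202827_s_at rose as well, to 162, 233 and 200 (1.15, SE 0.15, limma adjusted p = 4.9e-06). The dim 202828_s_at, left out by the filter, read 45.1, 76.6 and 70.7 against at most 9.03 on a control array. MMP14 217279_x_at fell to 242, 356 and 250 (-1.06, SE 0.17, limma adjusted p = 5.7e-05), and no ERG-labelled array reached the control range. These tested probe sets kept their directions and calls under quantile normalization and median centring. The ending _x_at marks probes that can match unrelated transcripts, and _s_at probes shared by several transcripts.

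ADAM17, which releases TNF and ligands of the EGF receptor, split in the same manner. ADAM17 205745_x_at read 1346, 1229 and 980 on control and 397, 342 and 467 on ERG-labelled arrays, well below (log2 fold change -1.52, SE 0.16, limma adjusted p = 4.7e-07). ADAM17 205746_s_at rose from 77.9, 68.8 and 59.4 to 181, 178 and 211 (1.28, SE 0.15, limma adjusted p = 1.6e-06). ADAM17 213532_at read 803, 741 and 560 against 1005, 875 and 1032, also without overlap (0.47, limma adjusted p = 0.0102), but differed by 0.06 and did not pass after quantile normalization. Thus the gene had no single direction across its probe sets.

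ADAM10 202604_x_at read 286, 286 and 265 on control and 67.7, 75.3 and 93.4 on ERG-labelled arrays, 3.13-fold lower (log2 fold change -1.65, SE 0.14, limma adjusted p = 6.1e-08). ADAM10 214895_s_at fell to 101, 113 and 178 (-1.18, SE 0.18, limma adjusted p = 2.2e-05), again with no overlap. ADAM10 202603_at read 1763, 1846 and 2358, overlapped the control arrays and did not pass (0.35, limma adjusted p = 0.0722). It passed without control array A (0.49, 0.02) and after median centring (0.86), and lay at -0.23 after quantile normalization. ADAM19 221128_at fell from 63.2, 47.0 and 57.5 to 31.0, 13.3 and 18.9 (-0.98, SE 0.17, limma adjusted p = 1.1e-04), all of them under the array median in both groups. The 3 tested _x_at probe sets, of MMP14, ADAM10 and ADAM17, all fell. Among all 2812 tested _x_at probe sets 37.2% were called lower, and their median log2 difference was 0.15.

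**Figure D5:**
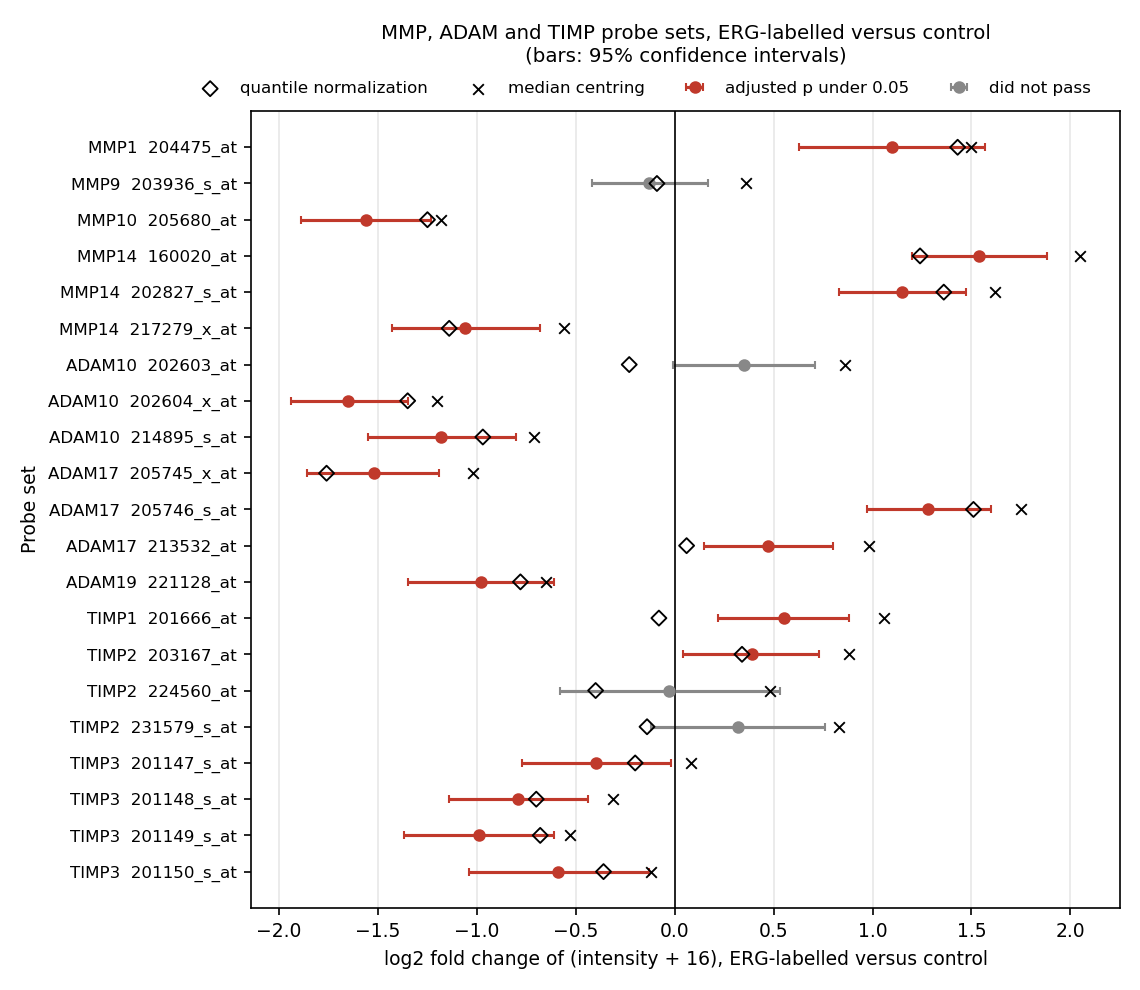
Log2 fold change between ERG-labelled and control arrays for each of the 21 tested probe sets, as deposited and under other scalings, with 95% confidence intervals from limma for the values as deposited. MMP14 has probe sets at 1.54 and -1.06 and ADAM17 at 1.28 and -1.52, and the TIMP3 values move toward or past 0 after median centring.

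Set directly against each other, ERG-labelled arrays had much less TIMP3 and MMP10 than ETV1 arrays, and more MMP1. MMP10 and MMP1 were tested only through arrays where each was high. In limma 18 of the 21 tested probe sets (85.7%) were called, 8 higher and 10 lower on the ERG-labelled arrays, against 81.8% of all tested probe sets, 43.0% higher and 38.8% lower. The groups did not overlap in the same number, 18 of 21 (85.7%), against 79.7% of all tested probe sets. The median log2 difference was 0.09 over the 21 and 0.10 over all tested probe sets, the latter becoming 0.61 after median centring, with higher calls going from 52.5% to 65.8%. This comparison uses arrays of the other comparisons, so the 3 are not independent. Marker sums on ETV1 arrays were 1304 to 1361 for fibroblast, 526 to 621 for leukocyte, 1634 to 1766 for endothelial and 37769 to 39427 for epithelial markers, against the ERG-labelled sums given above, and their part was not tested here either.

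TIMP3 differed by -1.90 (SE 0.15) in 201148_s_at, with 714 to 928 on ETV1 arrays and 175 to 214 on ERG-labelled arrays, 3.73-fold lower (limma adjusted p = 2.5e-08). The log2 differences of 201149_s_at, 201150_s_at and 201147_s_at were -1.88, -1.65 and -1.42. All 4 kept direction and call in every one of their 20 to 22 alternatives. The order of TIMP3 levels was thus ETV1, control, ERG-labelled in each probe set, with no overlap between neighbouring groups as deposited, although the step from control to ERG-labelled arrays was lost in 3 of the 4 under another scaling.

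MMP10 was 3.38-fold lower on ERG-labelled than on ETV1 arrays (log2 difference -1.76, SE 0.15, limma adjusted p = 3.5e-08), and MMP1 was higher by 1.78 (SE 0.21, limma adjusted p = 1.2e-06). Neither pair of groups overlapped. MMP10 had entered the test through the control and ETV1 arrays, and MMP1 through the ERG-labelled arrays alone, so the filter partly chose both by direction. MMP14 160020_at was higher by 1.40 and 202827_s_at by 0.52, while 217279_x_at was lower, by -0.85 as deposited and -0.34 without a call after median centring. MMP9 did not pass (0.09, SE 0.13, limma adjusted p = 0.518). ADAM19 221128_at fell between these groups by 1.61 on the log2 scale, the full distance from its highest to its lowest group (SE 0.16, limma adjusted p = 2.7e-07). It had entered the test through the ETV1 arrays alone, where it was high. ADAM10 202604_x_at and 214895_s_at differed by -2.07 and -1.51, ADAM10 202603_at by 0.22 (limma adjusted p = 0.205), and the ADAM17 probe sets by -1.35 (205745_x_at), 0.70 (205746_s_at) and 0.42 (213532_at). Among the inhibitors without a fall, TIMP1 was higher by 0.60, TIMP2 203167_at by 0.75 and TIMP2 231579_s_at by 0.49, and TIMP2 224560_at differed by 0.28 (limma adjusted p = 0.30). The values of TIMP1, of TIMP2 231579_s_at and of ADAM17 213532_at turned to -0.22, -0.05 and -0.08 after quantile normalization. The call of TIMP2 231579_s_at also ended without ETV1 array A (0.44) or C (0.48) or ERG-labelled array C (0.26).

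The wider system was read from lists of related genes, each gene by the probe set with the highest mean over all arrays. Between ETV1 and control 22.5% of the 14069 genes tested this way were called, 8.43% higher and 14.1% lower, with a median log2 difference of -0.06. Of 15 tested matrix proteins that MMPs can cut, 8 rose and 1 (COL5A1) fell, with a median of 0.73. The proteoglycan VCAN, at 120 ± 26.9 (SD, n = 3) in control, reached 544 ± 78.4 (n = 4), up by 2.05 on the log2 scale (limma adjusted p = 1.0e-06), and the basement membrane collagens COL4A2 and COL4A1 rose by 1.77 and 1.72. FN1, LAMB3, TNC, SPARC and THBS1 were the other risers. The counts of matrix genes were the same, 8 and 1, under quantile normalization and median centring.

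Among the other ADAMs, 3 of 10 tested genes rose on ETV1 arrays and 0 fell, with a median of 0.21. ADAM8, a metalloprotease best known from leukocytes, went up from 229 ± 30.5 (n = 3) to 1187 ± 418 (n = 4), by 2.21 on the log2 scale (limma adjusted p = 5.2e-05), and ADAM9 and ADAM15 rose by 1.10 and 0.58. Of 18 tested partners and regulators 2 rose and 1 fell (median -0.02). RHBDF2, an iRhom that carries ADAM17 to the cell surface, rose by 0.83, BSG, an inducer of MMPs, rose by 0.56, and the tetraspanin CD9 fell by 0.58 on the log2 scale. Of 22 tested substrates of ADAM10 or ADAM17, HBEGF and SDC1 rose (0.50 and 0.77), and IL6R fell by 0.78 on the log2 scale, with a median of 0.02 over the list. None of the 10 other MMPs or of the 7 ADAMTS genes passed in limma, with 2 and 0 of them at an unadjusted p under 0.05 and medians of 0.00 and 0.10. After quantile normalization 1 of these MMPs passed.

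Between ERG-labelled and control arrays 79.7% of genes were called by this reading, 47.5% higher and 32.1% lower, with a median of 0.30. Among other MMPs 2 rose (MMP15 and MMP28) and 7 of 10 fell, with a median of -1.32. Of the 7, MMP2, MMP12, MMP19, MMP26 and MMP27 lay above the array median on no ERG-labelled array and were tested only through arrays where they were high. MMP2, the gelatinase that MMP14 and TIMP2 activate, was read by 1566678_at. That probe set went from 259 ± 32.0 to 5.10 ± 3.56 (n = 3 each), a log2 difference of -3.71 (limma adjusted p = 9.7e-10). MMP26 and MMP27 fell by 2.14 and 1.99 on the log2 scale. Each of these genes stands by 1 probe set, the one with the highest mean over all arrays, and any others are not given here. Of all genes with at least 2 called probe sets, 50.3% had calls both ways in this comparison. No ADAMTS gene rose and 6 of 7 fell, with ADAMTS17 at -2.28 and ADAMTS18 at -2.14; 3 of the 6 (ADAMTS2, ADAMTS9 and ADAMTS17) were tested only through such arrays. Of the other ADAMs 5 of 10 rose and 5 fell, and all 5 that fell entered the test in that way, while ADAM12 and ADAM23 entered through the ERG-labelled arrays alone. These counts therefore describe genes that the filter had partly chosen by direction. ADAM12 rose by 2.35 and ADAM8 by 1.95, and ADAM33, read by 233868_x_at, fell by 5.25 on the log2 scale.

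Of the 18 partners and regulators 8 rose and 6 fell on the ERG-labelled arrays (7 and 9 after quantile normalization, 11 and 4 after median centring). RHBDF2 rose by 1.69 and TSPAN10, a tetraspanin that escorts ADAM10, by 1.77, and LRP1, an endocytic receptor for MMPs and TIMPs, fell by 2.02 on the log2 scale. Of 22 shed substrates 13 rose and 4 fell, a split that became 8 and 8 after quantile normalization. NRG1 rose by 2.73, TNFRSF1B by 2.14 and L1CAM by 1.83, each of which also rose under both scalings, TNFRSF1B having entered the test through the ERG-labelled arrays alone. Of 15 matrix genes 4 rose and 9 fell (5 and 7 after median centring), with COL7A1 at -2.79, COL1A1 (217430_x_at) at -2.23 and NID1 at 1.90. VCAN, which rose on ETV1 arrays, was at 26.4 ± 3.26 on ERG-labelled arrays. The lower fibroblast marker sums given above move with these falls, and COL1A1, COL3A1 and DCN are in both lists; its part in them was not tested. Among the partners, substrates and matrix genes, LRP1, TNF, CDH2, JAM3, COL5A1, VCAN and SPARC were above the array median on no ERG-labelled array, and TSPAN10, TSPAN33 and TNFRSF1B on those arrays alone.

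Against the ETV1 arrays, with 83.5% of genes called (50.3% higher, 33.1% lower) and a median of 0.36, the ERG-labelled arrays had 2 of 10 other MMPs higher and 8 lower, 4 of 10 other ADAMs higher and 5 lower, and 0 of 7 ADAMTS genes higher and 7 lower. Of partners and regulators 8 were higher and 6 lower, of shed substrates 14 and 6, and of matrix genes 2 and 12. After quantile normalization these became 6 and 10, 9 and 9, and 1 and 12, and after median centring 11 and 5, 16 and 4, and 2 and 7. Other MMPs, other ADAMs and ADAMTS genes became 1 and 7, 3 and 7, and 0 and 6 after quantile normalization. After median centring they were 2 and 7, 4 and 5, and 0 and 6. The same genes were tested as against control, with the same limit from the filter, and the lists' medians were -1.29 for other MMPs, -0.57 for other ADAMs, -1.47 for ADAMTS genes, 0.09 for partners, 0.70 for shed substrates and -0.91 for matrix genes.

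MMP10 and MMP1 are neighbours in a cluster of 9 MMP genes on chromosome 11, in the order MMP7, MMP20, MMP27, MMP8, MMP10, MMP1, MMP3, MMP12 and MMP13 in RefSeq. Of these 9, 4 were bright enough to test. On ERG-labelled arrays MMP27 (-1.99), MMP10 (-1.56) and MMP12 (-1.71) fell, and all 3 entered the test through the control and ETV1 arrays, while MMP1, between MMP10 and MMP12, rose by 1.10. On ETV1 arrays MMP27, MMP10 and MMP12 did not pass (limma adjusted p 0.38 to 0.99). MMP1 entered through the ERG-labelled arrays and the others through the remaining arrays, so the filter had partly chosen these probe sets by direction. Among the neighbours too dim to test, MMP3 and MMP13 read higher on ERG-labelled than on control arrays in the mean (17.3 against 7.89 and 23.2 against 3.36). MMP7, MMP20 and MMP8 read lower.

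The genes whose pattern over the 10 arrays was most like that of TIMP3 201148_s_at, each set against its own control mean on the log2 scale, were CALD1 (214880_x_at), the actin-binding protein caldesmon, with a mean absolute difference of 0.14, DSG3, a desmosomal cadherin, with 0.14, and ABHD2, a hydrolase, with 0.15. DSG3 read 512 on control, 1086 on ETV1 and 332 on ERG-labelled arrays in the mean, and ABHD2 read 375, 825 and 220. They were picked for this likeness, so their levels are a description only.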

How the data were processed

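Expression was measured on 10 arrays of RWPE-1 cells in 3 groups. The authors deposited a table of probe set intensity values on a linear scale, with 1 value per probe set and array. The method of summarising probes and the normalization are not given in the sources used here. Total RNA was extracted with Trizol and labelled as biotinylated cRNA, per the labels' protocols.

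The values were used as deposited, on the scale log2(intensity + 16), which shrinks differences between dim values. GEO's platform annotation gave 1 gene to 41091 probe sets, several to 1801 and none to 11721; 62 are array controls and were left out, and 54 symbols did not match RefSeq. Probe sets above their array's median (50th percentile) on at least 3 arrays were tested with limma 3.58.1 in R 4.3.3, as two-sided tests from 1 model of all 3 groups (7 residual degrees of freedom), with p-values adjusted by Benjamini-Hochberg over all 31839 and called at 0.05. Exact permutation tests were run on single probe sets. Fold changes are on the log2(intensity + 16) scale. Levels of different probe sets were set against each other only in the filter, the choice of probe set per gene and the marker sums.

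The genes and lists were chosen with earlier results of these data known. Every probe set of the 10 genes is reported. From each other list, up to 3 genes per comparison are named, those with the largest called change and no overlap between groups. Further names were added after their values were seen, where 8 or fewer genes of a list were called in 1 direction. The lists cover other MMPs, other ADAMs, ADAMTS genes, partners and regulators, shed substrates, matrix proteins, and markers of epithelium, fibroblasts, leukocytes and endothelium. The labels do not say whether equal replicate letters mark paired arrays. No pairing was visible, though it was not tested. Correlations of deviations from the group means ran from -0.0958 to 0.0835 over 9 same-letter pairs and from -0.164 to 0.105 over 24 other pairs.

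Settings tried beside these were other scalings (median centring, quantile normalization), other filters (the 75th percentile, or no filter), the brightest probe set per gene with arrays or groups weighted equally, other pseudocounts (1, 64), limma's trend and robust options, fits to only the 2 groups compared, the letter as a replicate block, 0.01 as threshold, and omission of each array. The fit was also tried on simulated arrays of 31839 probe sets, of which 200 were changed. For ETV1 against control, ERG-labelled against control and ERG-labelled against ETV1, a log2 rise of 1 was recovered in 88%, 82% and 78% of 50 probe sets. In the same order, a rise of 0.5 was recovered in 8%, 14% and 16%, and a fall of 1 in 74%, 68% and 80%. Far more probe sets were called in the data (20.5%, 78.2% and 81.8%), which loosens the adjusted cut-off. These shares therefore do not give the sensitivity of the tests reported here.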

Additional observations from a re-analysis of the deposited data

Results flagged for a closer look

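In a check of the 4 ETV1 arrays over the 21 tested probe sets, an array stood apart from the others in 2 of them. TIMP3 201147_s_at read 626 on ETV1 array D and 388 to 420 on arrays A to C, a gap of 0.866 of the whole range. TIMP3 201148_s_at read 928 on the same array and 714 to 721 on the others, a gap of 0.969. Both exceed Dixon's 95% critical value for 4 samples, which chance alone passes in about 1 of 20 groups. Both probe sets read the same gene, and both rises against control held without array D, at 0.87 and 1.01 on the log2 scale (limma adjusted p = 6.6e-04 and 3.8e-04).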

How the results depend on the processing

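The 4 TIMP3 rises on ETV1 arrays and the lower TIMP3 on ERG-labelled than on ETV1 arrays kept direction and call under every alternative in which they were tested. The count of called probe sets for ETV1 against control, 9, became 5 with a 75th percentile filter, which tests 15 of the probe sets, and 3 with the brightest probe set per gene under either weighting, which tests 10. With 1 probe set per gene the counts were 7 for ERG-labelled against control and 8 for ERG-labelled against ETV1 under either weighting. Leaving out 1 array at a time gave counts of 7 to 9, 14 to 17 and 16 to 18. With a replicate block the counts were 8, 16 and 18. In limma ADAM10 202604_x_at on ETV1 arrays (adjusted p = 0.0774) and TIMP2 203167_at on ERG-labelled arrays (0.0584) then lost their calls. Whether the letters pair the arrays is not stated. Values that turned, with a call before or after, were, for ERG-labelled against control, MMP9 203936_s_at (0.36) and TIMP3 201147_s_at (0.08) after median centring and TIMP1 201666_at (-0.08) after quantile normalization, and, for ERG-labelled against ETV1 after quantile normalization, ADAM10 202603_at (-0.51), ADAM17 213532_at (-0.08), TIMP1 201666_at (-0.22) and TIMP2 231579_s_at (-0.05); the cause was not tested. Values with a call neither before nor after also changed sign, among them, under quantile normalization, ADAM10 202603_at (-0.23) and TIMP2 231579_s_at (-0.14) for ERG-labelled against control, TIMP2 224560_at (-0.14) for ERG-labelled against ETV1 and TIMP1 (0.14) for ETV1 against control. Counted over probe sets and settings, calls ended 19 times and arose 3 times for ETV1 against control, 34 and 5 for ERG-labelled against control, and 9 and 4 for ERG-labelled against ETV1. The number of arrays and the dim signal of MMP1, ADAM19 and MMP14 202828_s_at limit what can be read from them.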
